A study of Mus musculus with 8 samples.

Results

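The 10 member genes of the immediate early response were followed across the 8 arrays of the series: Fos, Fosb, Fosl1 and Fosl2, which encode the Fos proteins; Jun, Junb and Jund, which encode the Jun proteins; Egr1, a zinc finger transcription factor; Atf3, a basic leucine zipper factor induced by many stresses; and Ier2, which encodes a nuclear protein of the same response. Every probe on the array that carries a RefSeq transcript of one of these 10 genes was taken, which gave 11 probes, printed as 20 spots per array, of the 55681 non-control probes on the array, where 20887 genes with a symbol are represented. This choice of probes uses no measured value, but the member genes were chosen with earlier results of these data known. Fosl2 has 2 probes, the Fos probe is printed 10 times per array, and each other probe is printed 1 time. The values are log2 ratios of Cy5 to Cy3, where Cy5 carries the RNA of the sample and Cy3 carries 1 reference RNA. A difference of 1 between samples is a doubling. The level of 1 probe carries an offset of its own: on the array that compared the reference RNA with itself, Junb read 0.51 and the brighter Fosl2 probe -0.48, and the 90th percentile of the absolute ratio over all probes kept was 0.44. As far as such an offset is alike on all arrays, it cancels in a difference between samples.

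The samples were ureteric bud cells of mouse kidneys at postnatal day 0, sorted by flow cytometry for green fluorescent protein, from C57BL/6 mice. The ureteric bud is the epithelium that branches into the collecting duct system. There were 4 wildtype (WT) samples, labelled as controls, and 4 knockout (KO) samples, labelled DOT1-null, in which Dot1 was deleted conditionally in Hoxb7-positive cells; Dot1l encodes the methyltransferase of lysine 79 of histone H3. The Cy3 reference on all WT and KO arrays was the RNA of WT replicate 3, whose own array therefore compared 1 RNA with itself, and no dye was swapped. The labels call the samples biological replicates and do not say which transgenes the WT mice carried or how many animals gave 1 sample, and p-values here cover only the spread seen between them. On the slide, the KO arrays filled one row and the WT arrays the other, and an effect of the row cannot be told apart from the genotype. The probe of Dot1l differed by 0.18 ± 0.11 between KO and WT (log2, SE; adjusted p = 0.341 in limma), and the part of the transcript it reads was not known, so it does not check the labels.

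Immediate early genes are transcribed within minutes of a stimulus, without new protein synthesis, and their transcripts decay quickly. Kinase cascades act on factors already bound at their promoters, among them serum response factor at CArG boxes and CREB at cyclic AMP response elements (CRE). Fos and Jun proteins pair as the AP-1 factor, which binds the site TGACTCA and related sites. Enzymatic dissociation of tissue is known to induce these genes in many cell types.

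To show what the promoters of the most variable members hold, the 250 bases before the start of transcription are given for Fos, Fosb and Atf3, and beside them for Nr4a1 and Srf, 2 of the genes whose values followed Fos most closely below. The sequences are from RefSeq on GRCm38.p6, written 5′ to 3′ in the direction of the gene. Capitals mark the CRE core (TGACG, or CGTCA on the other strand) and CArG boxes.
Fos (chr12:85473640-85473889, plus strand): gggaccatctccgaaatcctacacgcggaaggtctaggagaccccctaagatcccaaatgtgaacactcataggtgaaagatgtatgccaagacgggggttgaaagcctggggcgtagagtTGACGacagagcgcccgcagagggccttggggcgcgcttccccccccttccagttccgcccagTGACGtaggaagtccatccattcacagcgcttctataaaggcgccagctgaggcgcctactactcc
Fosb (chr7:19310046-19310295, minus strand): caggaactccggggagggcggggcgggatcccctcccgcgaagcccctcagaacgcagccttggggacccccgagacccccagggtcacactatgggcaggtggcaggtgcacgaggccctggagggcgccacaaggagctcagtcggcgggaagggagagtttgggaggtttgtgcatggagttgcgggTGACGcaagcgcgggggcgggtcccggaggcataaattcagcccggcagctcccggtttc
Atf3 (chr1:191183334-191183583, minus strand): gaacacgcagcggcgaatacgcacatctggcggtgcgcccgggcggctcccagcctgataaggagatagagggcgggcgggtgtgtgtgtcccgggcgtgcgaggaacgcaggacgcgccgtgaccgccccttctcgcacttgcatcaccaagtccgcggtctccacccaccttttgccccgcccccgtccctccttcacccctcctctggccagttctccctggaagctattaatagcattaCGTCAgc
Nr4a1 (chr15:101266596-101266845, plus strand): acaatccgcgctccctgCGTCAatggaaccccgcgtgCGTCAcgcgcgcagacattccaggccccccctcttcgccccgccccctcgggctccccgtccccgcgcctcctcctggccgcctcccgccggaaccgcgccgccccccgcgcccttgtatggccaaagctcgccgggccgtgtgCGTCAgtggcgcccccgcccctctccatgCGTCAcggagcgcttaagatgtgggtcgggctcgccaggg
Srf (chr17:46556163-46556412, minus strand): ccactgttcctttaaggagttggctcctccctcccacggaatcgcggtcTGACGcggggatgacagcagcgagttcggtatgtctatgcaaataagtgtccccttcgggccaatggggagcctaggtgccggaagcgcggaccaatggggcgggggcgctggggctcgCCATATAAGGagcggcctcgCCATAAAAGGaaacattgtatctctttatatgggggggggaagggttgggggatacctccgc

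The table of promoters held 7 of the 10 members: Atf3, Fos, Fosb, Fosl2, Jun, Junb and Jund. The CRE core stood in 4 of these 7, namely Atf3, Fos, Fosb and Junb, against 17.8% of the 32851 promoters in the table. In Fos it began 129 and 66 bases before the start, in Fosb 60, in Atf3 7 and in Junb 106. The EGR site GCGNGGGCG, on either strand, stood in Fosb and Fosl2 and in 4.70% of all promoters. No member promoter held the full CRE TGACGTCA (1.55% of all promoters), the AP-1 site TGACTCA on either strand (4.46%) or a CArG box (1.47%) in this window. The full CRE contains the CRE core on both strands, and a CArG box outside these 250 bases would not have been seen. Of the genes printed for comparison, Srf held 2 CArG boxes, CCATATAAGG and CCATAAAAGG, and Nr4a1 held the CRE core 4 times. Of the genes most like Fos that are not printed, Ppp1r15a held the full CRE, beginning 12 bases before the start. Snapc1, also not printed, held the CRE core 29 bases before the start. A match of letters is a description of the sequence and not a measured binding site.

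The arrays differed in brightness. Cy5 was well above background at 52.4% to 56.2% of spots on the WT arrays, at 59.1%, 68.9% and 61.5% on the arrays of KO 1, KO 2 and KO 4, and at 95.2% on that of KO 3, where 7665 spots were left out as non-uniform or outlying against 175 to 216 on the others. All 16 listed ureteric bud markers were well above background on all 8 arrays, but so were the 6 listed markers of nephron progenitors, the 6 of endothelium, 8 of 8 of macrophages and leukocytes on the array, 7 of 8 of stroma and 2 of 4 of red blood cells on the array. No marker probe of these lists differed between KO and WT at an adjusted p of 0.05 in limma, and 15 of the 54 kept had an unadjusted p under 0.05, against 23.8% of all probes.

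Of the 11 member probes, 10 probes of 9 genes passed the filter, which required a Cy5 signal well over background on 4 or more of the 8 arrays. No member probe differed between KO and WT at an adjusted p of 0.05 in limma, with Benjamini-Hochberg adjustment over the 31667 probes kept, where 2 probes or 0.00632% were called. These 2, named after their values were seen, were those of 1190007I07Rik (-1.38) and Gadd45gip1 (-0.94), both lower in KO. At an unadjusted p of 0.05, 2 of the 10 member probes passed, Fosl2 and Ier2, against 23.8% of all probes. The values of KO and WT were fully separate for 1 member probe, a probe of Fosl2, against 11.4% of the 28477 probes with a value on every array. The 10 differences lay 5 above 0 and 5 below, with a median of -0.064 beside -0.023 over all probes. For Fos, Fosb, Egr1 and Atf3 the SD within WT was more than 2 times the size of the difference, while for the brighter Fosl2 probe, Ier2, Jund and Junb it was smaller than the difference.

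**Figure D1:**
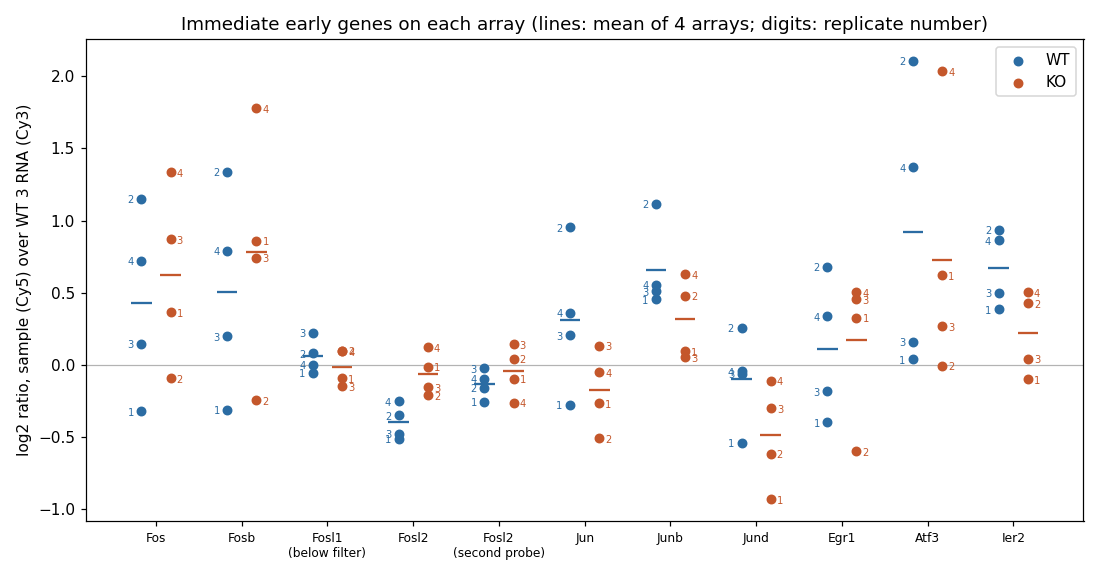
Log2 ratio of Cy5 to Cy3 (vertical axis) of each member probe, Fosl1 below the filter included, with 1 point per array, marked with its replicate number, for the 4 WT and the 4 KO samples; short lines show the mean of each group. For Atf3, Fosb and Fos the points of each genotype spread over most of the range of the other genotype, while the first Fosl2 probe has all 4 KO points above all 4 WT points.

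Fos, the founding member of the Fos family, had log2 ratios of -0.32, 1.15, 0.15 and 0.72 in WT 1 to WT 4 and of 0.36, -0.093, 0.87 and 1.33 in KO 1 to KO 4. WT 2 and KO 4 were the high samples and WT 1 and KO 2 the low ones, and the groups overlapped over most of their range. The highest WT sample exceeded the lowest 2.78-fold, and the highest KO sample the lowest 2.69-fold. KO differed from WT by 0.19 ± 0.36 (SE, n = 4 and 4; 95% confidence interval -0.61 to 1.00; limma adjusted p = 0.774), which is smaller than the SD within either group (0.65 in WT, 0.62 in KO). The sign of this difference turned when WT 1 (-0.054) or KO 4 (-0.044) was left out. The 10 printed spots of the probe gave the precision of 1 array: their SD was 0.042 to 0.080 on each array, over the 8 to 10 spots that were not left out.

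Fosb, whose protein also pairs with Jun proteins, had log2 ratios of -0.31, 1.34, 0.20 and 0.79 in WT 1 to WT 4 and of 0.86, -0.25, 0.74 and 1.78 in KO 1 to KO 4. The same samples were high and low as for Fos. The range was 3.14-fold within WT and 4.07-fold within KO. The difference of KO from WT, 0.28 ± 0.44 (SE, n = 4 and 4; 95% confidence interval -0.70 to 1.26; limma adjusted p = 0.730), was again within the SDs of 0.72 and 0.83, and without KO 4 it was -0.052.

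Fosl1, which encodes Fra-1, was not well above background in any WT sample and was so in 1 KO sample, KO 3, the brightest array. Its net Cy5 signal was 8 to 25 on the other 7 arrays and 184 on that of KO 3. With Cy5 at background in WT, no fold change is given for it. Its log2 ratios ran from -0.055 to 0.22 in WT and from -0.15 to 0.098 in KO.

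Fosl2, which encodes Fra-2, had a narrow spread within each genotype. Its brighter probe, A_55_P1995195, had log2 ratios of -0.51, -0.35, -0.48 and -0.25 in WT 1 to WT 4 and of -0.012, -0.21, -0.16 and 0.12 in KO 1 to KO 4. All 4 KO samples lay above all 4 WT samples, and the range within a group was 1.20-fold in WT and 1.26-fold in KO. KO exceeded WT by 0.33 ± 0.10 (SE, n = 4 and 4; 95% confidence interval 0.11 to 0.56; unadjusted p = 0.00872, limma adjusted p = 0.121), so it did not pass the threshold. It passed without KO 2 (0.38, adjusted p = 0.0305 in limma), when all probes were refitted on 3 KO arrays and 21.7% of them passed. It also passed without KO 2 and KO 3 together (0.45, adjusted p = 0.0182 in limma, 23.5% of all probes) and with array weights (0.39, adjusted p = 0.0252 in limma, 18.4% of all probes). Without loess, with arrays centred on their medians, the difference was -0.012, where the median over all probes moved to -0.28.

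The second Fosl2 probe, A_51_P507242, was dim, with a net Cy5 signal of 31 to 36 on the WT arrays and of 2427 on that of KO 3. The net Cy3 signal of the shared reference RNA rose there too, to 311 against 5 to 15 on the other arrays. Its log2 ratios were -0.26, -0.16, -0.022 and -0.096 in WT 1 to WT 4 and -0.096, 0.041, 0.14 and -0.26 in KO 1 to KO 4. Here the groups overlapped, and the difference was 0.089 ± 0.11 (SE, n = 4 and 4; 95% confidence interval -0.15 to 0.33; limma adjusted p = 0.635). The probes of Fosl2 thus gave differences of the same sign and of unlike size.

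Jun, the partner of the Fos proteins in AP-1, had log2 ratios of -0.28, 0.96, 0.21 and 0.36 in WT 1 to WT 4 and of -0.27, -0.51, 0.13 and -0.051 in KO 1 to KO 4. WT 2 was the highest of all samples and KO 2 the lowest, and KO 4, which was high for Fos, was not high for Jun. The range was 2.35-fold within WT and 1.56-fold within KO. The difference was -0.49 ± 0.24 (SE, n = 4 and 4; 95% confidence interval -1.02 to 0.048; limma adjusted p = 0.247). It was -0.27 without WT 2, and -1.30 with median centring in place of loess, where the median over all probes moved to -0.28.

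Junb, a Jun protein that often opposes Jun, had log2 ratios of 0.46, 1.12, 0.51 and 0.55 in WT 1 to WT 4 and of 0.096, 0.48, 0.054 and 0.63 in KO 1 to KO 4. One sample, WT 2, stood well above the other WT samples, and KO 4 and KO 2 fell within the WT range. The difference was -0.34 ± 0.18 (SE, n = 4 and 4; 95% confidence interval -0.75 to 0.056; limma adjusted p = 0.269). It was -0.19 without WT 2, -0.66 with median centring and -0.77 by Cy5 alone. The median over all probes moved to -0.28 with median centring and to -0.18 by Cy5 alone.

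Jund, a Jun gene that many cells express steadily, had log2 ratios of -0.54, 0.26, -0.062 and -0.045 in WT 1 to WT 4 and of -0.93, -0.62, -0.30 and -0.11 in KO 1 to KO 4. KO 1 and KO 2 lay below every WT sample, while KO 3 and KO 4 lay within the WT range. The difference was -0.39 ± 0.20 (SE, n = 4 and 4; 95% confidence interval -0.85 to 0.067; limma adjusted p = 0.273). It was -0.24 without KO 1 and -1.11 with median centring, where the median over all probes moved to -0.28. The 3 Jun genes thus all had a mean below that of WT, and none of the 3 differences passed the threshold.

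Egr1, which encodes a zinc finger factor that binds the EGR site, had log2 ratios of -0.40, 0.68, -0.18 and 0.34 in WT 1 to WT 4 and of 0.33, -0.60, 0.45 and 0.50 in KO 1 to KO 4. KO 2 stood apart below the other 3 KO samples, which lay close together. The range was 2.11-fold within WT and 2.15-fold within KO, around a difference of 0.062 ± 0.29 (SE, n = 4 and 4; 95% confidence interval -0.59 to 0.71; limma adjusted p = 0.916). The sign of that difference depended on single arrays, from -0.11 without WT 1 to 0.32 without KO 2.

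Atf3 had the widest spread among the members in either genotype. Its log2 ratios were 0.040, 2.11, 0.16 and 1.37 in WT 1 to WT 4 and 0.62, -0.0059, 0.27 and 2.04 in KO 1 to KO 4. WT 2, WT 4 and KO 4 were high, and the other 5 samples lay between -0.0059 and 0.62. The range was 4.19-fold within WT and 4.12-fold within KO. The difference of -0.19 ± 0.54 (SE, n = 4 and 4; 95% confidence interval -1.39 to 1.01; limma adjusted p = 0.857) became 0.21 without WT 2 and -0.63 without KO 4.

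Ier2 had log2 ratios of 0.39, 0.94, 0.50 and 0.86 in WT 1 to WT 4 and of -0.099, 0.42, 0.043 and 0.50 in KO 1 to KO 4. KO 1 and KO 3 lay below all WT samples, and KO 2 and KO 4 fell among the lower WT samples. KO was below WT by the fit (difference -0.45 ± 0.17, SE, n = 4 and 4; 95% confidence interval -0.84 to -0.070; unadjusted p = 0.0250), and the limma adjusted p over all probes was 0.159. It kept its sign in all 23 alternative settings, as did the differences of Jun, Junb and Jund. That of Ier2 ran from -0.85, with median centring, where the median over all probes moved to -0.28, to -0.35. Its adjusted p-values in limma ran from 0.0698 to 0.327.

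**Figure D2:**
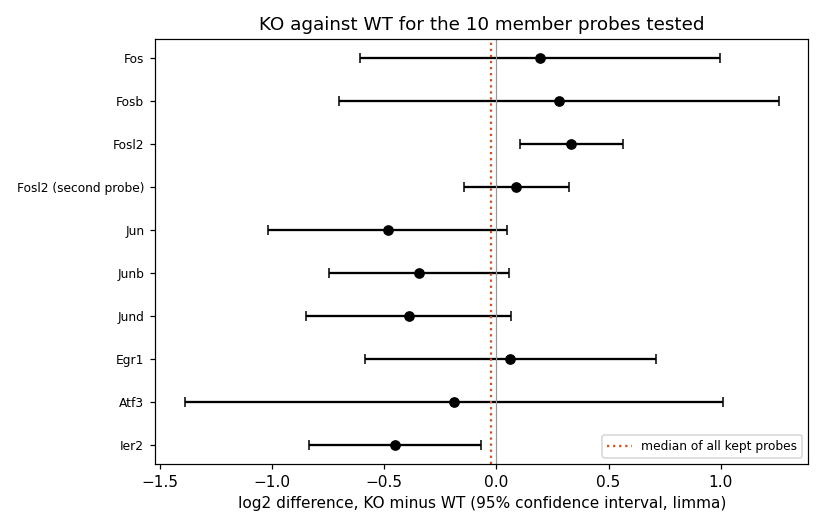
Difference of KO from WT in log2 ratio for each member probe that passed the filter (horizontal axis), with its 95% confidence interval from limma; the dotted line is the median difference of all probes kept (-0.023). The intervals of the brighter Fosl2 probe and of Ier2 leave out 0 and the other 8 include it; no probe passed an adjusted p of 0.05.

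The spread within a genotype was set against that of all probes and against the reference channel. The median SD over the member probes kept was 0.41 within WT, beside 0.11 over all probes kept, and 0.33 within KO, beside 0.18. With the scanner's own log ratio these were 0.45 beside 0.23 within WT and 0.40 beside 0.32 within KO, so that the members were closer to all probes. Within WT, 8 of the 10 member probes lay above the 90th percentile of all probes (an SD of 0.25), with Atf3 at percentile 99.9, Fosb at 99.4, Fos at 99.2, Jun at 98.1 and Egr1 at 98.0. Within KO, 4 of the 10 lay above it (an SD of 0.39): Atf3 at percentile 98.7, Fosb at 98.4, Fos at 96.7 and Egr1 at 95.1. The probes of Fosl2 were not among them in either group, with the brighter at percentile 53.6 in WT and 37.5 in KO. Over all probes the KO samples varied more than the WT samples, with a higher SD in KO for 71.3% of probes, against 6 of the 10 member probes.

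**Figure D3:**
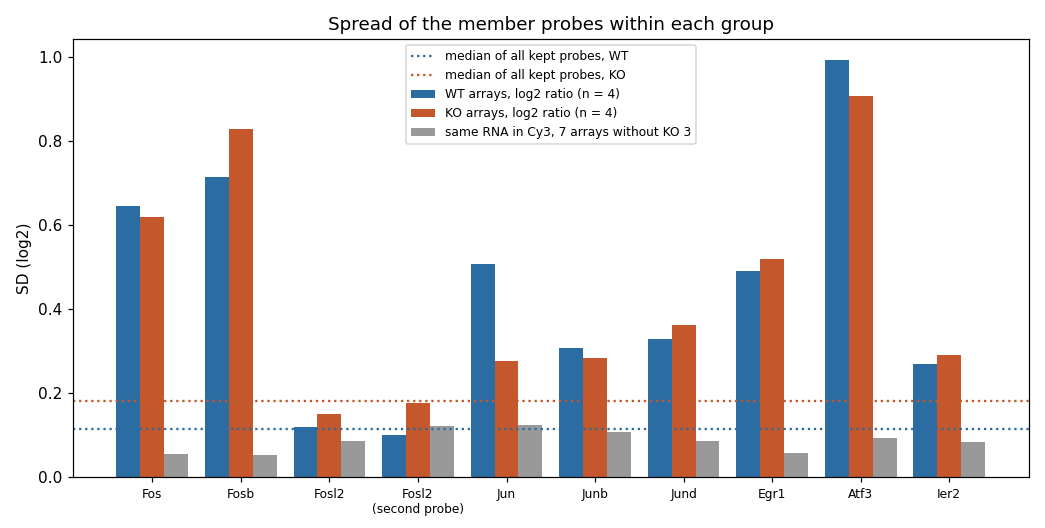
SD of the log2 ratio over the 4 WT samples and over the 4 KO samples (vertical axis) for each member probe that passed the filter, beside the SD of the reference RNA in Cy3 over the 7 arrays without KO 3. Dotted lines mark the median SD of all probes kept within WT (0.11) and within KO (0.18); Atf3, Fosb, Fos and Egr1 stand far above both lines in both groups, with a small Cy3 SD.

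The Cy3 channel holds 1 RNA on all 8 arrays, so its spread is that of repeated readings. Over all 8 arrays, the SD of the log2 Cy3 signal was 0.057 for Fos, 0.054 for Egr1, 0.075 for Fosb and 0.098 for Atf3. The SD of the log2 Cy5 signal over the 4 WT samples was 10.9 times the Cy3 SD for Fos, 9.89 times for Fosb, 10.8 times for Atf3 and 8.03 times for Egr1. The Cy3 SD covers the reading of 1 RNA on different arrays, and not the separate sorting, extraction and labelling of each sample. The same ratio was 4.19 for Jund, 3.15 for Ier2 and 3.13 for Jun, and 1.53 for the brighter Fosl2 probe. For Junb it was 0.87, with a Cy3 SD of 0.41 that fell to 0.11 without KO 3. For the dim Fosl2 probe it was 0.083, with a Cy3 SD of 0.78 that fell to 0.12 without KO 3. Leaving out WT 2, the sample in which most members were highest, lowered the median member SD within WT from 0.41 to 0.31. Leaving out KO 4 changed it from 0.33 to 0.31 within KO.

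**Figure D4:**
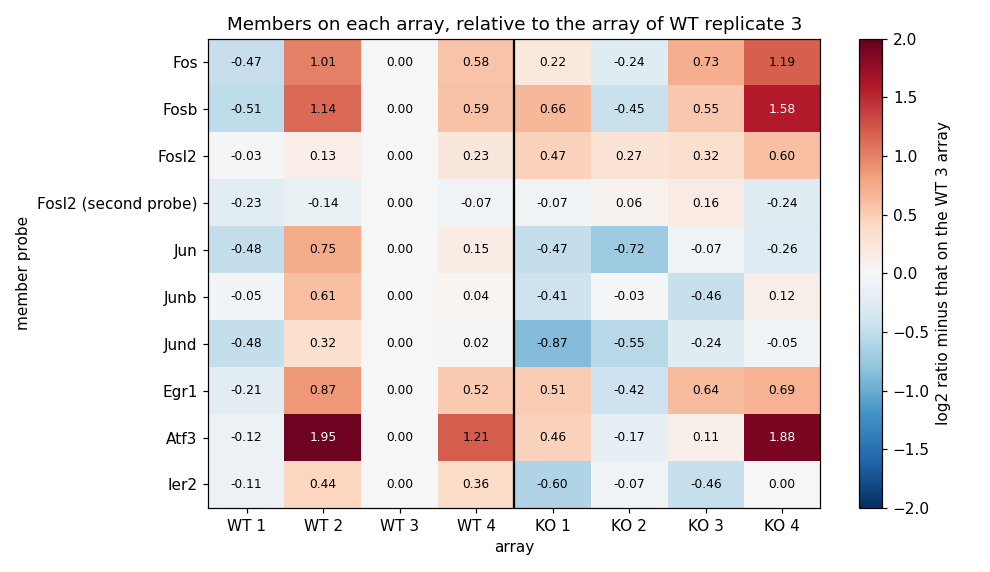
Log2 ratio of each member probe that passed the filter (rows) in each sample (columns, 4 WT then 4 KO), as the difference from the array of WT 3, which compared the reference RNA with itself; red is higher and blue lower. The columns of WT 2 and KO 4 are red for Fos, Fosb, Egr1 and Atf3, reaching 1.95 and 1.88 for Atf3, and those of WT 1 and KO 2 are blue for the same genes.

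Most members placed the samples of a genotype in a like order. WT 2 was the highest WT sample for 8 of the 10 member probes and WT 1 the lowest for all 10, while KO 4 was the highest KO sample for 8 and KO 2 the lowest for 6. The samples looked at here were chosen after the values were seen. WT 2 highest together with WT 1 lowest was seen for 8 of 10 member probes and for 6.98% of all probes with 8 values. KO 4 highest together with KO 2 lowest was seen for 5 of 10 and for 11.0%, and all 4 positions at once for 4 of 10 (Atf3, Egr1, Fos and Fosb) and for 0.709%. After each group's mean was subtracted, Pearson's r with Fos over the 8 samples was 0.95 for Fosb, 0.92 for Egr1, 0.90 for Atf3, 0.89 for Jun and 0.85 for Jund (Spearman's rho 0.93, 0.95, 0.93, 0.93 and 0.88). Without the 2 samples farthest from the median of Fos, WT 1 and WT 2, r was 0.93, 0.87, 0.83, 0.84 and 0.73. KO 2 and KO 4 lay nearly as far out and were kept, so these values still rest in part on extreme samples. For Ier2 and Junb r went from 0.57 and 0.53 to 0.31 and 0.19, so that their relation to Fos rests largely on WT 1 and WT 2. For the Fosl2 probes r was 0.75 (the brighter) and -0.19. These values share the arrays and the Cy3 reference and describe 8 samples only.

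The genes without a place among the members whose values were most like those of Fos, over the 18225 other probes kept with a symbol and a value on all 8 arrays, were Nr4a1 (r = 0.97), Snapc1 (0.97), Srf (0.97), Ppp1r15a (0.95) and Zc3h11a (0.94). Nr4a1, an orphan nuclear receptor of the immediate early response, had log2 ratios of -0.75, 1.37, -0.12 and 0.18 in WT 1 to WT 4 and of 0.16, -0.56, 0.69 and 1.41 in KO 1 to KO 4. Srf, which encodes serum response factor, had a narrower course of -0.041, 0.55, 0.11 and 0.30 in WT and of 0.20, 0.0018, 0.23 and 0.58 in KO. Ppp1r15a, a phosphatase subunit of the stress response, went from -0.72 in WT 1 to 0.28 in WT 2 and from -0.73 in KO 2 to -0.076 in KO 4. The highest of all samples was WT 2 for Ppp1r15a and KO 4 for Nr4a1 and Srf. Snapc1, a subunit of the small nuclear RNA activating complex, followed the order within an SD of only 0.088 in WT and 0.079 in KO. None of these 5 genes differed between KO and WT at an adjusted p of 0.05 in limma; the lowest was that of Zc3h11a (0.32 ± 0.11, SE, n = 4 and 4, adjusted p = 0.140).

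Among 24 other immediate early transcription factors, 22 genes with 26 probes passed the filter, and 11 of these 26 probes had an r with Fos above 0.8, against 0.704% of all probes: Csrnp1, Egr2, Egr4, Irf1, Klf4, Klf6, Nr4a1, Nr4a2, Per1, Srf and Tiparp. All 4 positions of high and low samples, as above, were seen for 9 of the 23 probes with 8 values. Their median log2 ratio was highest in WT 2 (0.34) and KO 4 (0.42), and lowest in WT 1 (-0.23) within WT and in KO 3 (-0.16) within KO, where KO 2 had -0.13. Between the genotypes, 14 probes lay above 0 and 12 below, the median difference was 0.017, and none passed the threshold in limma, with 2 of the 26 at an unadjusted p under 0.05 (23.8% of all probes). Per1, a clock gene that is also induced early, had KO samples of 0.40, 0.13, 0.42 and 1.02 against WT samples of -0.60, -0.046, -0.12 and -0.16. Its groups did not overlap, with a difference of 0.72 ± 0.19 (SE, n = 4 and 4; limma adjusted p = 0.109). Hes1, a target of Notch signalling, lay below WT in all 4 KO samples (-0.50 ± 0.14, SE, n = 4 and 4; limma adjusted p = 0.115). For Csrnp1 the groups overlapped (-0.44 ± 0.28, SE, n = 4 and 4; limma adjusted p = 0.366).

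The feedback genes and other products of the response were 35 genes, of which 33 with 37 probes passed the filter. Of the 37 probes, 7, or 18.9%, had an r with Fos above 0.8: Ccn1, Dusp1, Hbegf, Nfkbia, Ppp1r15a, Socs3 and Tnfaip3. Of the differences 16 lay above 0 and 21 below, with a median of -0.033, 8 of 37 at an unadjusted p under 0.05 (23.8% of all probes) and none past the threshold in limma. Sgk1, a kinase of sodium transport in the collecting duct, had KO samples of 0.70, 0.84, 1.03 and 1.61 against WT samples of -0.60, -0.63, 0.11 and 0.65. Every KO sample lay above every WT sample, the SD within WT was 0.62, and the difference was 1.16 ± 0.30 (SE, n = 4 and 4; limma adjusted p = 0.108). Trib1, a pseudokinase, lay below WT in all KO samples by 1 of its 2 probes (-0.62 ± 0.15, SE, n = 4 and 4; limma adjusted p = 0.104), and the other gave -0.24. Dusp4, a phosphatase of MAP kinases, gave -0.58 ± 0.18 (SE, n = 4 and 4; limma adjusted p = 0.120) with overlapping groups.

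Among the other AP-1 and related leucine zipper genes, few placed the samples as Fos did. Of 20 genes, 19 with 28 probes passed the filter, none of the 28 had an r with Fos above 0.8, and all 4 positions were seen for 2 of the 26 with 8 values. Their differences lay 14 above 0 and 14 below, with a median of 0.0075, 9 of 28 at an unadjusted p under 0.05 (23.8% of all probes) and none past the threshold in limma. Cebpd, a factor of the acute phase response, had WT samples of -1.28, -0.88, -0.37 and -1.002 and KO samples of -0.48, -0.36, 0.045 and 0.59 (difference 0.83 ± 0.25, SE, n = 4 and 4; limma adjusted p = 0.120). The 3 probes of Mafg, a small Maf protein, all lay above 0 (0.48, 0.36 and 0.56; adjusted p-values in limma 0.121, 0.157 and 0.133). Atf5 lay below WT in all 4 KO samples (-0.33 ± 0.10, SE, n = 4 and 4; limma adjusted p = 0.120).

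The kinases and factors upstream of the response, 25 genes with 45 probes, had small SDs (median 0.11 in WT, 0.19 in KO), near those of all probes. None of the 45 had an r with Fos above 0.8, 19 differences lay above 0 and 26 below, the median was -0.066, 14 of the 45 had an unadjusted p under 0.05 (23.8% of all probes), and none passed the threshold in limma. The probes of 1 gene disagreed for both genes named here. For Elk1, a partner of serum response factor, 1 probe read 2.45, -0.043, 2.31 and 3.03 in KO 1 to KO 4 against -0.068 to 0.20 in WT (1.86 ± 0.54, SE, n = 4 and 4; limma adjusted p = 0.118), and the other gave -0.15. For Map2k4, a kinase of the JNK pathway, the probes gave -0.54 ± 0.11 (SE, n = 4 and 4; limma adjusted p = 0.101) and 0.017.

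Heat shock genes are also known to be induced by tissue dissociation. Of 15 genes, 14 with 20 probes passed the filter, none of the 20 had an r with Fos above 0.8, and all 4 positions were seen for 0 of the 18 probes with 8 values. KO 4 was the highest KO sample for 12 of these 18, and WT 2 the highest WT sample for 5. The differences lay 9 above 0 and 11 below, with a median of -0.0081, 3 of 20 at an unadjusted p under 0.05 (23.8% of all probes) and none past the threshold in limma. Hsp90ab1, a chaperone, lay above WT in all 4 KO samples (0.36 ± 0.13, SE, n = 4 and 4; limma adjusted p = 0.140). Dnaja1, a co-chaperone, gave 0.31 by 1 probe and -0.14 by the other, and Hsf1, the heat shock transcription factor, gave -0.32 ± 0.14 (SE, n = 4 and 4; limma adjusted p = 0.203).

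The summed Cy5 signals of the marker lists varied between samples too. For ureteric bud genes the sum was 57978 to 76114 in WT and 75345 to 87198 in KO. Of this, the probe of Krt18 alone read 22139 to 36406 in WT and 38085 to 53036 in KO. The median log2 ratio of the ureteric bud probes kept was 0.19, 0.073, 0.14 and 0.15 in WT 1 to WT 4. In KO 1 to KO 4 that median was 0.0035, 0.28, -0.094 and -0.11. For red blood cell genes the sum was 3718 in WT 2 and 22044 to 52077 in the other 3 WT samples, and 22019 to 37566 in KO. For nephron progenitor genes it was 20709 and 23351 in WT 1 and WT 2, which were the lowest and the highest WT sample for most members. It was 12091 and 12642 in WT 3 and WT 4, 16818 in KO 2 and 11544 to 12871 in the other KO samples. Of this, the probe of Eya1 alone read 6742 to 9301 over all arrays. The median log2 ratio of the progenitor probes kept was 1.15, 1.52, 0.082 and 0.28 in WT 1 to WT 4. In KO 1 to KO 4 it was -0.48, 0.86, 0.25 and 0.61. For stroma the sum was 4930 to 10302 in WT and 2925 to 9850 in KO, and for endothelium 6102 to 13643 in WT and 7849 to 8845 in KO. For macrophages and leukocytes it was 8336 to 12528 in WT and 7497 to 13613 in KO 1 to KO 3, and 40936 in KO 4. Of the 3 Itgam probes, 1 alone read 8617, 2500, 6202 and 35119 in KO 1 to KO 4, against 2991 to 3512 in WT. The median log2 ratio of the leukocyte probes kept did not rise in KO 4. It was 0.11, -0.061, 0.079 and -0.24 in WT 1 to WT 4 and -0.23, -0.21, -0.14 and -0.20 in KO 1 to KO 4. The part of these cell types in the members' spread was not tested, and neither was that of sorting time or handling, for which no values were used here. In bulk RNA, a higher level in all cells and a larger share of cells with that level cannot be told apart.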

How the data were processed

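The deposited scanner files hold median intensities of Cy5 and Cy3 and of the local background for 62976 spots on each of 8 arrays, which the authors extracted (Agilent Feature Extraction 10.7.3.1 is named in the submitters' processing notes), with array annotation for mm9 per the file headers. The files also hold the scanner software's log10 ratio of Cy5 to Cy3, and the authors' deposited value table gives log10 values as well. Its columns followed the scanner ratios with a largest difference of 0.00496 and had medians of 0 on 7 arrays and 0.0152 on that of KO 3; they were not centred further.

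In limma 3.58.1 (R 4.3.3), normexp with an offset of 50 corrected the background and loess, with control spots at weight 0, normalised each array's log2 ratios. Non-uniform spots and population outliers were dropped, and a probe's spots were averaged. Probes were kept with Cy5 well above background on at least 4 of 8 arrays and values on at least 3 arrays per group. Symbols came from unversioned RefSeq accessions in a GRCm38.p6 table, which matched 21717 of 37850 distinct names. Levels per channel used Aquantile after loess. KO and WT (4 arrays each) were compared by probe with lmFit and eBayes, 2-sided, adjusted over 31667 probes, with no replicate block. On simulated data of 31667 probes the comparison recovered 75 of 100 probes changed by 1 on the log2 scale. It recovered 100 of 100 changed by 2, and there were 4 false calls. The simulated noise was independent and normal with the same SD in both groups, and only 200 probes were changed. On the arrays the SD was higher in KO for 71.3% of probes, so these counts do not measure recovery in the real comparison. Recovery was not tested for the member probes, whose median SD within WT was 0.41 beside 0.11 over all probes kept. Same-numbered samples were compared by correlation as a check for pairing, which cannot show whether they shared a litter or handling.

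The members, the gene lists and the tests were chosen with earlier results of these data known. Besides the members, the text names up to 3 genes of each list with the smallest p and the 5 genes most like Fos by r. A gene that this rule names is not reported here.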

Additional observations from a re-analysis of the deposited data

Results flagged for a closer look

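Of the 20 groups of 4 values looked at (10 member probes in WT and in KO), 2 had a sample far from the other 3. Chance gives about 1 in 20 groups if they are independent. The member probes share the same samples and many moved together, so the 20 groups are not independent and the count is a description only. For Junb, WT 2 had a log2 ratio of 1.12 against 0.46 to 0.55 in the other WT samples. For Egr1, KO 2 had a log2 ratio of -0.60 against 0.33 to 0.50 in the other KO samples.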

How the results depend on the processing

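Over all probes, 2 were called. The count was 1 with a normexp offset of 0, without background subtraction or with the mean of a gene's probes, 5 with the scanner's log ratio or the value table, 0 with median centring, Cy5 alone or the replicate block, 6 with scaling between arrays, 4 without the filter on dim probes, 19 with an intensity trend and robust fit, 5837 with array weights and 7436 without KO 2 and KO 3 together. Leaving out 1 array gave 1 to 6193, the highest without KO 2, with 8 without KO 3 and 4 without WT 3. The count of member probes called was 1 (Fosl2) without KO 2, without KO 2 and KO 3, and with array weights, and 0 under every other alternative, the replicate block included. The cause was not tested.

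Median centring without loess moved the median over all probes to -0.28, and Cy5 alone to -0.18. Under median centring Fos turned to -0.34, Fosb to -0.24, Fosl2 to -0.012 and Egr1 to -0.62, each by more than the median of all probes moved. Atf3 turned to 0.036 with array weights and to 0.41 without KO 2 and KO 3, where the dim Fosl2 probe turned to -0.047. Over the arrays left out in turn, Fos went from -0.054 to 0.44, Fosb from -0.052 to 0.62, Egr1 from -0.11 to 0.32 and Atf3 from -0.63 to 0.21.

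The lists of other AP-1 genes, immediate early factors, feedback genes, kinases and heat shock genes had 0 probes called, and 6, 2, 5, 10 and 1 with array weights and 8, 2, 6, 16 and 1 without KO 2 and KO 3. Without KO 2 they had 9, 2, 6, 11 and 1, and 0 without any other single array. Their medians under median centring were -0.17, -0.33, -0.42, -0.38 and -0.45. With Cy5 alone they were -0.15 for AP-1 genes, -0.20 for feedback genes and -0.14 for kinases. For kinases the median was -0.025 with scaling, -0.12 with array weights and -0.13 without KO 2 and KO 3, and -0.13 to -0.029 over single arrays left out. For AP-1 genes it was 0.096 without KO 2 and KO 3, and 0.022 to 0.092 over single arrays.

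The median member SD within KO (0.33) was 0.38 with an offset of 0, 0.40 with the scanner's ratio, 0.51 with median centring and 0.52 with Cy5 alone, where that of all probes (0.18) was 0.28, 0.32, 0.43 and 0.40, and 0.31 to 0.37 with 1 KO array left out. Within WT (0.41 beside 0.11 over all probes) it was 0.45 beside 0.21 with an offset of 0 and 0.45 beside 0.23 with the scanner's ratio, and 0.31 to 0.49 with 1 WT array left out; leaving out arrays other than WT 3 and KO 3 for the spread was chosen after seeing the data. Same-numbered samples correlated from -0.21 to 0.11, and the highest correlation with another number ran from 0.087 to 0.14. Such values cannot show whether same-numbered samples shared handling. No member passed under the replicate block.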
